A study of Mus musculus with 18 samples.

Results

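Cholesterol synthesis was followed through 8 genes of the RNA-seq table of serum-grown mouse embryonic stem cells (mESCs), *Hmgcs1*, *Idi1*, *Fdps*, *Fdft1*, *Sqle*, *Lss*, *Dhcr7* and *Insig1*. They were chosen by name, with earlier results of these data known, and are 8 of the 18659 genes in the table. All but *Insig1* encode enzymes of the pathway, *Insig1* encodes a brake on it, and none of the 8 is an uptake gene, so uptake genes were read as a list of their own. The cells were E14 mESCs, a male line, grown on gelatin in serum (FCS) with LIF, and the sources name no mutant allele or transgene. All 16 libraries were depleted of rRNA and fall into 3 replicate sets. Set 1 held 1 library of scrambled control siRNA (scr) and 3 of SP (1a, 1b and 1c), a SmartPool of siRNAs against *Stag1*, which encodes a subunit of cohesin. Set 2 held 1 library each of scr, SP, 3p and 5p (siRNAs against the 3′ or the 5′ end of *Stag1*), SATS (enzymatically made siRNA against a *Stag1* transcript that starts upstream) and untreated cells. Set 3 had the same 5 siRNAs and, instead of untreated cells, 1 library from cells given luciferase siRNA, which is enzymatically made as well. siRNAs were delivered with a cationic lipid reagent for 24 h, and the untreated library is the only one from cells with no such delivery. The knockdowns (KDs) were transient and partial, and every RNA level is that of a whole culture. A pair of libraries from cells grown in 2i was not analysed here.

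Cholesterol is built from acetyl-CoA through mevalonate, isoprenoid diphosphates, squalene and lanosterol. Transcription of most enzymes of this route is driven by SREBP2, a membrane-bound factor that SCAP carries to the Golgi for release when sterols in the endoplasmic reticulum run low, and that INSIG1 holds back when sterols are plentiful. *Insig1* is itself a target of SREBP2, and SREBPs act at promoters together with NF-Y and often SP1. Sterol synthesis therefore often moves as a group, and it is known to respond to serum lipoproteins, to cell density and to lipids brought into the cell.

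Promoter sequence was held for 5 of the 8 genes in the RefSeq table (GRCm38.p6), in windows from 250 bases before to 50 bases after the start, and for *Dhcr7* for each of its 3 starts. The 250 bases before the start are shown for *Hmgcs1*, *Insig1* and *Idi1*. *Hmgcs1* had the highest level and was the only one of the 5 with a classical sterol regulatory element in these windows. *Insig1* was the gene that passed the test in SP, and *Idi1* rose most between sets. Capitals mark matches to the sterol regulatory element TCACNCCAC, the NF-Y box CCAAT, the GC box GGGCGG and the E-box CACGTG, all searched on both strands. The E-box reads the same on both strands, and the printed matches do not overlap one another.
Hmgcs1, chr13:119690101-119690350, plus strand: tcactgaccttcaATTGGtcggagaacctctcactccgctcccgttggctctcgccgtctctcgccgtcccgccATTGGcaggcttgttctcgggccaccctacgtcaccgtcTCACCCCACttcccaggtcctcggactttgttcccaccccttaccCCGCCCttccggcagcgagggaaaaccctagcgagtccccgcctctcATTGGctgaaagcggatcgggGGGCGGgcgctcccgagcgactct
Insig1, chr5:28071162-28071411, plus strand: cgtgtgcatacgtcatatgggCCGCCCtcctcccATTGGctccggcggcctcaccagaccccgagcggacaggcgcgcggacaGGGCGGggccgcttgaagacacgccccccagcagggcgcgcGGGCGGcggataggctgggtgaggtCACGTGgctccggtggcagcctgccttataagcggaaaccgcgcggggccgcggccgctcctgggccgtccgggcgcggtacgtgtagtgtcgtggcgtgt
Idi1, chr13:8885356-8885605, plus strand: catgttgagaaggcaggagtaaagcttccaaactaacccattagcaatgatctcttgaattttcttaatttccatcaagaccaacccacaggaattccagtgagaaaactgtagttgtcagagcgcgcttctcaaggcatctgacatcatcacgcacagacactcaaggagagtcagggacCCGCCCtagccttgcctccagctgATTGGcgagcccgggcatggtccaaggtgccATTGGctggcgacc
The sterol regulatory element was found in 1 of the 5 genes, *Hmgcs1*, where its first base lies 137 bases before the start, and in 1.44% of the 27025 genes of the table, a gene being counted if any of its windows held it. An NF-Y box was held by all 5 genes, in *Dhcr7* in 1 of its 3 windows, and by 41.1% of the genes of the table. A GC box was held by all 5 genes and by 38.2%, and the E-box by *Insig1* and *Dhcr7* and by 8.09%. Starts are those of RefSeq. For *Insig1*, *Idi1*, *Lss* and *Dhcr7* they lie inside the longer GENCODE gene, and for *Hmgcs1* the start lies before it. These matches describe the letters in these windows and no binding was measured.

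In the GENCODE annotation of GRCm38, *Hmgcs1* lies at chr13:119690379-119708260 and *Idi1* at chr13:8885501-8892451, *Sqle* at chr15:59315077-59331192, *Insig1* at chr5:28071363-28078662, *Lss* at chr10:76531588-76557138 and *Dhcr7* at chr7:143823145-143848410, all on the plus strand. *Fdps* (chr3:89093588-89101959) and *Fdft1* (chr14:63145150-63179578) lie on the minus strand. *Fdft1* overlaps *Ctsb* on the opposite strand, and *Fdps* overlaps Gm43738, a protein-coding model, and Gm22935, an snRNA, on its own strand. *Hmgcs1*, *Idi1* and *Lss* each overlap an unnamed or antisense model on the opposite strand. Counting by strand is stated for the paired-end libraries alone, so part of these reads could belong to either gene.

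Depth differed between sets. Set 1 (4 libraries) was shallow, at 9023224 to 14040830 gene-assigned reads per library, and *Rn45s* (ribosomal RNA precursor) made up 69.2% to 79.1% of them. Sets 2 and 3 (12 libraries) had 32137666 to 45660840, with 14.7% to 23.9% of them from *Rn45s*. The fewest reads behind a value of the 8 genes were 58, for *Idi1* in scr of set 1. *Stag1* was lower in all KDs of sets 2 and 3, at a log2 difference from scr of −2.36 ± 0.097 (SE) for SP, −2.39 for 3p, −2.24 for 5p and −0.996 for SATS (limma with set as a block, adjusted p at most 0.0013, n = 2 per group). All 8 markers of embryonic stem cells were detected in every library, with a summed normalized value of 30117 to 64140. Of 6 fibroblast markers, the summed value was 2546 to 5625 in set 2, 337 to 545 in set 3 and 83.6 to 451 in set 1, and *Col1a1* was the highest of the 6 in every library of sets 2 and 3 (45.9% to 82.2% of the sum), whereas *Dcn* and *Lum*, which also define these cells, stayed at or near 0. In RNA from whole cultures, fewer cells of a type and less RNA per cell cannot be told apart.

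All 8 genes were well expressed. Per kilobase of annotated exon, *Hmgcs1* had the highest level, with a median normalized read count of 692 per kb in set 2 (range 527 to 751) and 851 in set 3. *Fdps* (median 278 per kb in set 2), *Fdft1* (258), *Sqle* (248) and *Insig1* (218) followed, and their ranges over the 6 libraries of set 2 overlapped, so their order is not resolved. *Idi1* (109), *Lss* (70.3) and *Dhcr7* (68.1) were lowest, and the range of *Idi1* (79.7 to 129) overlapped that of *Lss* (65.1 to 81.3) but not that of *Insig1* (175 to 289). Exon length here joins the exons of all annotated transcripts, and was 10.8 kb for *Lss*. The place of *Lss* among the lowest depends on that length. Undivided, its median in set 2 was 758, against 381 for *Idi1*, 396 for *Dhcr7* and 673 for *Insig1*.

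*Hmgcs1* encodes HMG-CoA synthase, an early enzyme of the mevalonate route. In set 2 its normalized read count (reads divided by the size factor of the library) was 2423 in untreated cells, 2855 in scr, 3452 in SP, 3115 in 3p, 3239 in 5p and 3452 in SATS. In set 3 it was 3543 with luciferase siRNA, 3706 in scr, 4846 in SP, 4315 in 3p, 3627 in 5p and 4112 in SATS. In set 1 it was 3101 in scr and 3469, 3361 and 4623 in SP 1a, 1b and 1c. The untreated and the luciferase library were the lowest of their sets, and all 5 SP libraries lay above scr of their set.

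*Insig1* encodes the protein that retains SCAP and SREBP2 in the endoplasmic reticulum. In set 2 its normalized read count was 542 in untreated cells, 667 in scr, 895 in SP, 699 in 3p, 678 in 5p and 661 in SATS. In set 3 it was 965 with luciferase siRNA, 1059.5 in scr, 1531 in SP, 1213 in 3p, 1080.2 in 5p and 1178 in SATS. In set 1 it was 931 in scr and 1006, 849 and 1369 in the 3 SP libraries. SP was the highest library of both larger sets, and in set 1 SP 1b lay under scr.

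*Idi1* encodes the isomerase that turns isopentenyl diphosphate into dimethylallyl diphosphate, the starter of isoprenoid chains. In set 2 its normalized read count was 279 in untreated cells, 389 in scr, 366 in SP, 372 in 3p, 392 in 5p and 454 in SATS. In set 3 it was 612 with luciferase siRNA, 614 in scr, 696 in SP, 604 in 3p, 594 in 5p and 951 in SATS. In set 1 it was 388 in scr and 475, 473 and 709 in the SP libraries. SATS was the highest library of sets 2 and 3, and untreated cells were the lowest of set 2.

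*Dhcr7* encodes the reductase of the last step, which makes cholesterol from 7-dehydrocholesterol. Its normalized read count in set 2 was 377 in untreated cells, 380.4 in scr, 456 in SP, 393 in 3p, 523 in 5p and 399 in SATS. In set 3 it was 524 with luciferase siRNA, 598 in scr, 591 in SP, 577 in 3p, 685 in 5p and 543 in SATS. In set 1 it was 529 in scr and 442, 459.9 and 636 in the SP libraries. Unlike the other 7 genes, *Dhcr7* was highest in 5p in both larger sets.

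The remaining 4 enzymes are described by their ranges. *Fdps*, the farnesyl diphosphate synthase, ranged from 950.0 in untreated cells to 1309 in SATS in set 2 and from 1121 with luciferase siRNA to 1382 in SATS in set 3. *Fdft1*, the squalene synthase, ranged from 951 in untreated cells to 1180.0 in SP and from 1146 with luciferase siRNA to 1458 in SP. *Sqle*, the squalene epoxidase, ranged from 1269.6 in untreated cells to 1553 in SATS and from 1591 with luciferase siRNA to 2067 in SP. The lowest library was thus the same in all 3 genes, and the highest was either SP or SATS. *Lss*, the lanosterol synthase, ranged from 703 in untreated cells to 877 in SP and from 926 with luciferase siRNA to 1111 in SP.

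**Figure D1:**
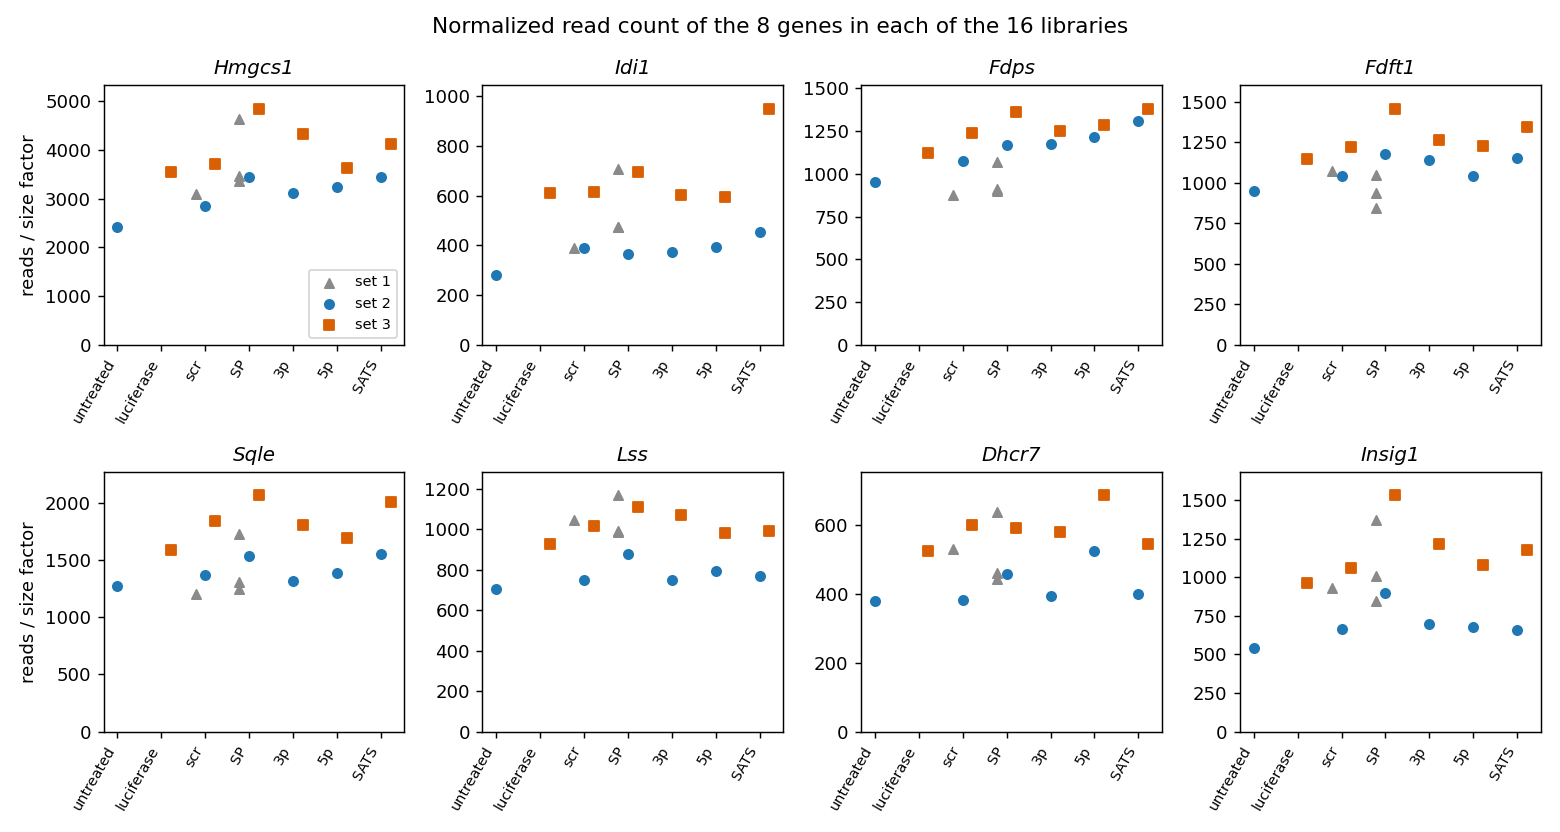
Normalized read count (reads divided by the size factor of the library, y axis from 0) of each of the 8 genes by siRNA (x axis), 1 point per library, with gray triangles for set 1, blue circles for set 2 and orange squares for set 3. For *Hmgcs1* the points run from 2423 in untreated cells to 4846 in SP of set 3, and the orange squares lie above the blue circle of the same siRNA in every panel.

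The controls of the 2 larger sets were compared first, since they differ in siRNA and in lipid delivery. All 8 genes were lower in untreated cells than in scr of set 2 (median log2 difference of scr over untreated 0.16), and all 8 were lower with luciferase siRNA than in scr of set 3 (median 0.13). The differences of untreated cells from scr ran from −0.48 on the log2 scale for *Idi1* to −0.013 for *Dhcr7*, with −0.30 for *Insig1* and −0.24 for *Hmgcs1*. Those of luciferase from scr ran from −0.21 for *Sqle* to −0.0056 for *Idi1*. Each control is 1 library, so none of these differences has a test.

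Untreated cells were the lowest of the 6 libraries of set 2 in 8 of the 8 genes, against 18% of 16490 genes tested. The luciferase library was the lowest of the 6 of set 3 in 7 of the 8, all but *Idi1*, against 12% of genes. Both held for 7 of the 8 genes, against 2.92% of genes. The same was true of 5 of 15 other synthesis enzymes (*Acat2*, *Mvd*, *Cyp51*, *Msmo1* and *Sc5d*), of 2 of 10 uptake and transport genes, of 2 of 11 fatty acid synthesis genes (*Elovl5* and *Fads2*), and of none of 6 genes of sterol sensing or 6 of efflux and LXR response. The genes of other lists named here were named after their values were seen. The 8 genes were chosen with earlier results of these data known, and the genes of a library share its depth and size factor. These counts are therefore descriptions of those libraries.

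Luciferase siRNA was delivered with the same lipid as scr and the 8 genes were below scr in that library as well, but the untreated and luciferase libraries sit in different sets and each lacks a replicate. Lipid delivery, siRNA and library cannot be told apart here. The fibroblast markers were highest in the untreated library (summed value 5625, against 2546 to 3607 in the other 5 of set 2), whereas in the luciferase library they lay within the range of its set (376, against 337 to 545). Their part in the difference was not tested.

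**Figure D2:**
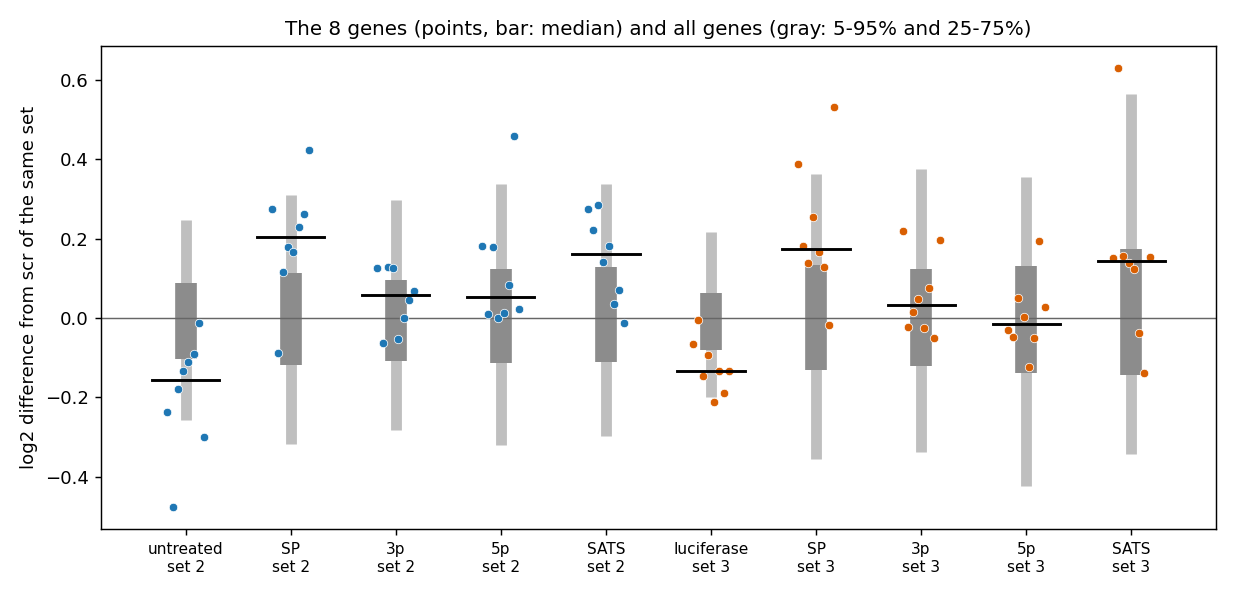
Log2 difference of each library of sets 2 and 3 from scr of the same set (y axis) by library (x axis). Points are the 8 genes, black bars their medians, and gray bars the central ranges over the 11026 genes whose mean value was 50 or more. The medians lie at −0.16 in untreated cells, −0.13 with luciferase siRNA, 0.20 and 0.17 in SP, and 0.16 and 0.14 in SATS.

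SP was set against scr to ask what KD of *Stag1* does to these genes. Over the 3 sets all 8 genes had a higher mean in SP, with log2 differences between 0.066 ± 0.21 (SE, *Dhcr7*) and 0.39 ± 0.25 (*Insig1*) and a median of 0.16, against 0.014 over all 15970 genes tested. None passed the test (limma, no block, with 0 of the 8 at an unadjusted p under 0.05, and 0 by edgeR or DESeq2). Of all genes, limma and edgeR without a block called 0 (0%), and DESeq2 called 1. Once sets were blocked, the errors were smaller, *Hmgcs1* reached 0.32 ± 0.069 (adjusted p = 0.759, limma), and 3 of the 8 genes fell under an unadjusted p of 0.05 (5.85% of all genes did), but again 0 of the 8 and 0% of all genes passed. edgeR with the block called 66 genes and none of the 8. Without scr or without SP of set 1 the blocked limma fit, which then rests on sets 2 and 3, called *Hmgcs1* and *Insig1*, against 3.03% and 3% of all genes.

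The 5 SP libraries did not move alike. *Hmgcs1*, *Sqle* and *Fdps* were above scr of their set in 5 of 5 libraries. *Idi1* and *Insig1* were above it in 4, *Lss* in 3, and *Fdft1* and *Dhcr7* in 2. Among the 3 SP libraries of set 1, SP 1c was the highest in 8 of 8 genes, against 38.3% of all genes. Its differences from scr ran from −0.033 for *Fdft1* to 0.87 for *Idi1* on the log2 scale. SP 1c was also the shallowest library, with 9023224 reads on genes, 79.1% of them *Rn45s*, and the part of depth in its values was not tested. Its summed stem cell markers were the lowest of set 1 (36369, against 46562 to 64140). Its fibroblast sum was the highest (451, against 83.6 to 197), as was its mesoderm sum (354, against 65.8 to 100). Its primitive endoderm (193) and neural (652) sums lay within the range of the set, and the part of these markers was not tested. *Fdft1* was below scr in all 3 SP libraries of set 1 (−0.19, −0.34 and −0.033) and above it in sets 2 and 3 (0.18 and 0.25).

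In sets 2 and 3 alone, where SP was fitted with the other siRNAs, all 8 genes were again higher in SP (median 0.17 on the log2 scale, against 0.00 over all 16490 genes). Without a block none was called (limma; 0 at an unadjusted p under 0.05, and 0 by edgeR or DESeq2), and 0.00606% of genes were. With the block *Insig1* rose, by 0.48 ± 0.078 on the log2 scale (adjusted p = 0.0115, limma; 0.0129 by edgeR), and was the only one of the 8 to pass, against 0.746% of all genes. *Insig1* was 895 in SP and 667 in scr of set 2 and 1531 and 1059.5 in set 3. *Hmgcs1* followed at 0.33 ± 0.087 (adjusted p = 0.111), and 5 of the 8 genes had an unadjusted p under 0.05, as 12.5% of all genes did. Leaving out any 1 of the 4 SP and scr libraries left *Insig1* between 0.43 and 0.53 with adjusted p from 0.114 to 0.278 in the fit with the block, so its call needs all 4.

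The wider pathway showed few calls in the same fit. *Cyp51*, the lanosterol demethylase, rose by 0.38 (adjusted p = 0.0403, limma with the block), as 1 of 15 other synthesis enzymes. *Abca1*, the transporter that exports cholesterol, fell by 0.71 on the log2 scale (adjusted p = 0.00966) and was the 1 gene called of the 6 of efflux and LXR response. With 1 of the 4 libraries left out, *Cyp51* stood between 0.35 and 0.41 and was called in 0 of 4 fits, and *Abca1* between −0.86 and −0.56 and was called in 1, without scr of set 2. No gene passed among 10 of uptake and transport, 6 of sterol sensing and 11 of fatty acid synthesis, of which 3, 0 and 1 had an unadjusted p under 0.05, beside the 12.5% of all genes given above. *Srebf2*, which encodes SREBP2, differed by 0.15 ± 0.073 and was not called.

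Choice of control changed these counts. With untreated cells and luciferase siRNA added to scr as controls, the limma fit with the block called 3 of the 8 genes in SP, *Insig1* (0.59, adjusted p = 7.11e-04, limma), *Hmgcs1* (0.41, 0.0142) and *Fdft1* (0.27, 0.0325), against 2.32% of genes. It called 0 of 8 in 3p (1.31% of genes), *Dhcr7* in 5p (0.38, adjusted p = 0.00644, against 6.71%) and 4 of 8 in SATS (*Idi1*, *Fdps*, *Hmgcs1* and *Sqle*, against 10.7%). The added controls are the libraries that were lowest for these genes, and all 4 comparisons share the same controls.

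**Figure D3:**
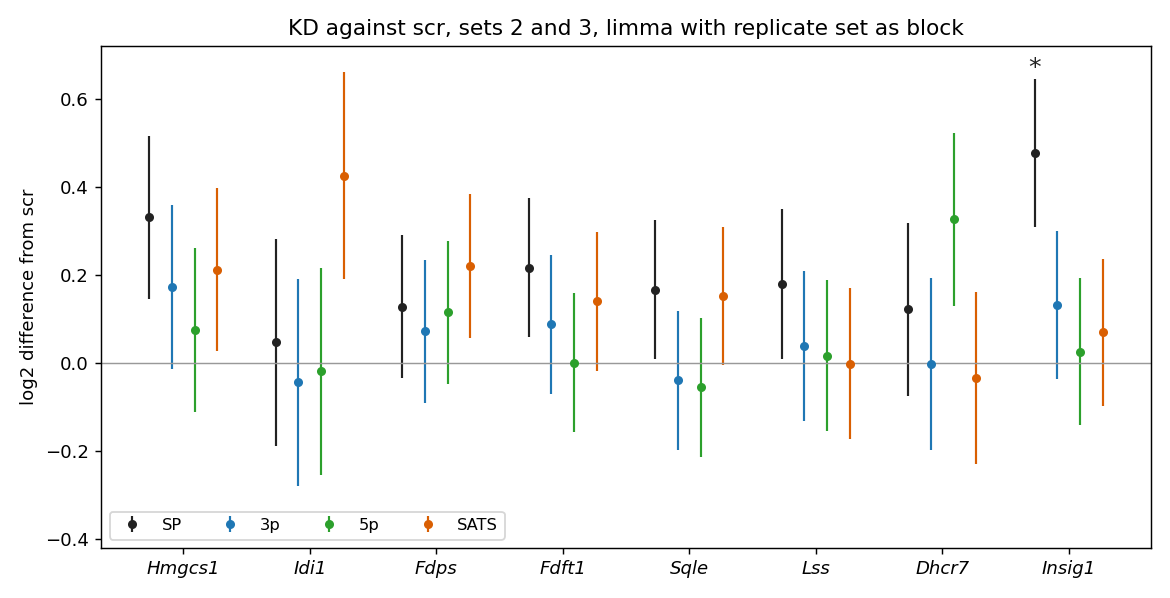
Log2 difference from scr (y axis) of each of the 8 genes (x axis) in SP, 3p, 5p and SATS, from the limma fit over 10 libraries of sets 2 and 3 with set as a block. Points are estimates, bars 95% confidence intervals, and the asterisk marks an adjusted p under 0.05, reached by *Insig1* in SP at 0.48.

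With 3p, none of the 8 genes passed without or with the block (limma; 0 at an unadjusted p under 0.05 in either, and 0 by edgeR with the block), against 0.00606% and 0.285% of genes. The log2 differences ran from −0.044 ± 0.11 for *Idi1* to 0.17 ± 0.087 for *Hmgcs1* (median 0.055), and *Insig1*, which rose in SP, stood at 0.13 (95% confidence interval −0.036 to 0.30). Among the other lists *Abca1* fell by 0.65 (adjusted p = 0.0378, limma with the block), a call that held in 1 of 4 fits with 1 library left out, without 3p of set 2. *Srebf2* (0.085) was not called.

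With 5p the 8 genes stayed near scr (median log2 difference 0.021) except *Dhcr7*. *Dhcr7* was 523 against 380.4 in scr of set 2 and 685 against 598 in set 3, a log2 difference of 0.33 ± 0.091 that missed the adjusted threshold (adjusted p = 0.0809, limma with the block). None of the 8 passed (1 at an unadjusted p under 0.05 with the block, as were 15.7% of all genes, and 0 without it, and 0 by edgeR with the block), against 2.37% of genes with the block and 0.0121% without. Outside the 8, *Abca1* fell by 0.69 and *Soat1*, which esterifies cholesterol, fell by 0.81 (adjusted p = 0.00523 and 0.00153, limma with the block). Of the 15 other synthesis enzymes 1 was also called in that fit, lower in 5p, and is not reported by name here. With 1 library left out, *Soat1* stood between −1.03 (without 5p of set 2) and −0.59 (without 5p of set 3) and lost its call without scr of set 3 (adjusted p = 0.0710, limma), and *Abca1* lost its call without that library or 5p of set 3. *Srebf2* (−0.042) was not called.

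When 5p was compared directly with 3p, *Dhcr7* stood 0.33 ± 0.091 higher in 5p (adjusted p = 0.0729, limma with the block). None of the 8 passed without the block (0% of genes) or with it (3.26%), and *Dhcr7* alone fell under an unadjusted p of 0.05 in the blocked fit, as did 15.8% of all genes. For the other 7 genes the differences lay between −0.11 (*Insig1*) and 0.043 (*Fdps*). Of the 15 other synthesis enzymes 1 was called in the blocked fit, lower in 5p than in 3p, and is not reported by name here. No gene of the remaining lists was called.

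With SATS 6 of the 8 genes were higher than scr (median log2 difference 0.15). *Idi1* was 454 against 389 in scr of set 2 and 951 against 614 in set 3, a difference of 0.42 ± 0.11 that was just outside the threshold by limma with the block (adjusted p = 0.055) and inside it by edgeR with the block (adjusted p = 0.0426). None of the 8 was called by limma with the block, against 2.64% of genes, though 3 had an unadjusted p under 0.05 (*Idi1*, *Fdps* and *Hmgcs1*), as 18.8% of all genes did, and none without it, against 0%. The difference of *Idi1* came mostly from set 3, being 0.22 in set 2 and 0.63 in set 3. With 1 library left out of the blocked limma fit it ran from 0.25 (without SATS of set 3) to 0.60 (without SATS of set 2). Of the other synthesis enzymes, *Msmo1*, a sterol demethylating oxidase, rose by 0.49 and *Cyp51* by 0.36 (adjusted p = 0.0269 and 0.0301, limma with the block), and *Abca1* fell by 0.50 (adjusted p = 0.0356). With 1 library left out *Cyp51* was called in 1 of 4 fits, without SATS of set 2, and *Msmo1* (0.45 to 0.53) and *Abca1* (−0.66 to −0.35) in 0 of 4. *Srebf2* (0.049) was not called.

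*Abca1* was thus lower than scr in SP, 3p, 5p and SATS, at normalized read counts of 291, 324, 288 and 328 in set 2 against 429.9 in scr and 394 in untreated cells. In set 3 the values were 175, 171, 182 and 207 against 318 in scr and 306 with luciferase siRNA. The control libraries lay above the KD libraries in both sets, and the KD comparisons share scr. *Abca1* was named because it passed the threshold, and the share of all genes with this order was not counted. Apart from their prefix, the catalogue numbers of the 3p siRNAs are also among those of the SP pool. SP and 3p may therefore not be independent reagents. Whether any siRNA differed from another in the 8 genes was tested for 5p and 3p only.

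All 8 genes were higher in set 3 than in set 2, with log2 differences within the siRNA of 0.14 ± 0.048 (*Fdps*) to 0.79 ± 0.069 (*Idi1*) and a median of 0.39, against −0.0060 over all genes. *Insig1* was 0.75 ± 0.049 higher, *Dhcr7* 0.48 ± 0.058, *Lss* 0.39 ± 0.050, *Sqle* 0.39 ± 0.046, *Hmgcs1* 0.35 ± 0.055 and *Fdft1* 0.23 ± 0.046. All 8 passed (limma with the siRNA as a block, 10 libraries, adjusted p from 3.39e-08 for *Insig1* to 0.0284 for *Fdps*), where 51.6% of all genes passed and 24.2% passed with a higher level in set 3. The libraries of a set are not replicates of that set, so these p-values measure how the set difference varied between siRNAs. *Fdps* no longer passed without the siRNA block (adjusted p = 0.0998), without the scr pair (0.0943) or without the SP pair (0.112).

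Each of the 8 genes was higher in set 3 in 5 of 5 pairs of libraries of the same siRNA, against 24.6% of all genes. For 6 of the 8, all but *Fdps* and *Fdft1*, the 6 libraries of set 3 lay above the 6 of set 2, against 11% of all genes. Of 11026 genes whose mean value was 50 or more, 9.11% were higher by more than the median of the 8 genes. These shares are descriptions, since the 8 genes were chosen with earlier results of these data known. The set and whatever was cultured, prepared or sequenced with it cannot be told apart.

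The wider pathway did not move in 1 direction between sets. The counts below stand beside 24.2% of all genes called higher in set 3 and 27.4% called lower, and several of them lie near these shares. Of 15 other synthesis enzymes 5 were higher in set 3 (among them *Cyp51*, *Msmo1*, *Lbr* and *Ggps1*) and 2 lower (*Pmvk* and *Ebp*), with a median difference of 0.10. Of 10 uptake and transport genes 3 were higher, among them *Stard4* (0.36) and *Vldlr* (0.34), and *Scarb1* (−0.45) and *Npc2* (−0.39) were lower. Of 6 efflux and LXR genes 3 were higher (*Nr1h3*, *Abcg1* and *Soat1*), and *Abca1* (−0.68) and *Apoe* (−0.58) were lower. Of 11 fatty acid synthesis genes 4 were higher and 2 lower, and of 6 sterol sensing genes 2 were higher. *Srebf2* was not called. Beside *Cyp51*, *Abca1*, *Apoe* and *Msmo1*, the genes of other lists named here were added after their values were seen. The fibroblast marker sum given above was also lower in set 3 (337 to 545, against 2546 to 5625 in set 2), and its part in these differences was not tested.

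**Figure D4:**
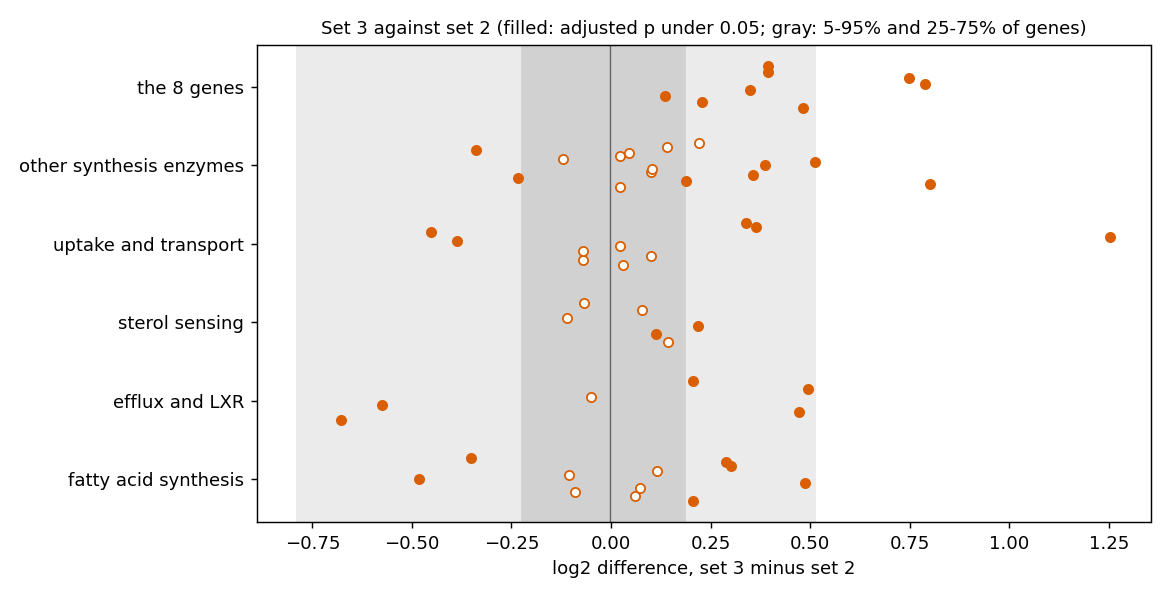
Log2 difference of set 3 minus set 2 (x axis) for the 8 genes and 5 further lists (y axis), 1 point per gene, filled where the adjusted p was under 0.05 (limma with the siRNA as a block). Gray bands give the central ranges over the 11026 genes whose mean value was 50 or more, and the 8 genes lie between 0.14 and 0.79.

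Most of the 8 genes tended to vary together across libraries within a set. Over the 12 libraries of sets 2 and 3, with the mean of each set subtracted from log2 values, Pearson's r between pairs of the 8 genes had a median of 0.70 (range −0.045 to 0.92, 27 of 28 pairs above 0). The r of a gene with the mean of the other 7 was 0.92 for *Hmgcs1*, 0.90 for *Fdft1*, 0.87 for *Fdps*, 0.86 for *Sqle*, 0.80 for *Insig1*, 0.78 for *Lss*, 0.53 for *Idi1* and 0.25 for *Dhcr7*. Without the untreated and luciferase libraries the median was 0.53 over 10 libraries (range −0.41 to 0.86), with 23 of 28 pairs above 0. The r with the mean of the other 7 was then −0.16 for *Dhcr7*, 0.19 for *Idi1* and 0.60 (*Lss*) to 0.86 (*Hmgcs1*) for the rest. Libraries of a set share a set number and a scr library, but the labels do not say whether they were prepared together. These values describe the libraries and have no test.

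Of 11018 other genes whose mean value was 50 or more, the one most like the mean of the 8 was *Cyp51* (r = 0.96 over the 12 libraries). *Fam133b* (0.91), *Rnf157* (0.91), *Smurf2* (0.90) and *Trp53inp1* (0.90) came next, and none of these 4 is on a list of sterol genes used here. The first 100 genes by r held 8 genes of the other lists, among them *Cyp51*, *Msmo1*, *Fads2*, *Acat2*, *Stard4*, *Sc5d* and *Nsdhl*. Those lists held 15, 10, 6, 6 and 11 genes before the filter on the mean, beside the 11018 genes ranked. Without the untreated and luciferase libraries the first 100 genes held *Cyp51* alone of these lists, and the order changed. *Tpst1* (r = 0.96) and *Acsl5* (0.94) then came before *Cyp51* (0.93), and *Fam133b* (0.90) was at rank 6. *Rnf157*, *Smurf2* and *Trp53inp1* were not among the first 10 genes. Over the 12 libraries, the median r among all genes with that mean level was 0.031.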

How the data were processed

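Reads had been mapped by the authors (hisat2, mm10) and assigned to genes (featureCounts). The deposited values are a normalized signal, the count of a gene over the DESeq2 size factor of its library (DESeq2 1.14.1). Per the labels, rRNA was depleted and libraries were directional. Sequencing was paired-end or single-end, and which libraries had which is not given in the sources used here. All deposited values were whole multiples of the value of 1 read (100%, tolerance 0.001), so reads were recovered. They bound counting error only. A second deposited table of set 1 was not used here.

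Genes summing to 10 or more over the libraries of a fit were tested by limma 3.58.1 in R 4.3.3 on log2(value + 1), with lmFit and with eBayes using a trend. p-values were adjusted over all of these genes by Benjamini-Hochberg, with a threshold of 0.05. On this scale the change of low genes is understated. The mean of SP 1a, 1b and 1c served as 1 sample. SP, 3p, 5p, SATS and scr of sets 2 and 3 were fitted together, either with no block or with set as a block. Set numbers in the labels paired the samples, since deviations from the group means of same-numbered samples correlated at 0.77 to 0.82 in SP and scr of 3 sets (3 pairs, 11057 genes) and at 0.81 to 0.93 in the other fit (20 pairs, 11019 genes). In the other fit each group has 2 libraries, so deviations in set 3 mirror those in set 2. Each of its correlations thus counts in both sets, and the 20 pairs are not 20 separate values. Because of these correlations, blocked values are printed beside the others. The study describes its replicate libraries as independent, but the labels do not say whether sets are separate cultures, so p-values measure the spread between these samples, which may be technical. edgeR 4.0.16 and DESeq2 1.42.0 were run on the recovered reads as alternatives, together with other pseudocounts, no filter, TMM scaling, single SP libraries of set 1, other controls and libraries left out. The limma fits and the blocked edgeR fit of SP against scr in sets 2 and 3 were tested on simulated data. The blocked limma fit recovered 12 of 50 genes changed 1.25-fold, 44 of 50 changed 1.5-fold and 49 of 50 changed 2-fold. It also called 11 of 16290 unchanged genes. The simulated dispersion was a fixed value and was not estimated from these libraries. Figures were drawn with matplotlib 3.10.9.

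The 8 genes and the lists were chosen with earlier results of these data known. Named were the 8 genes, *Stag1* and *Srebf2*, genes of the lists past the threshold without or with the block (at most 5 per comparison, by size), and the 5 genes most like the mean of the 8. Any other gene was named after its values were seen. Gene positions and exon lengths came from GENCODE M21 and promoters from RefSeq, both on GRCm38, and the annotation that the authors counted on may differ from them. Libraries of 2i cells were not analysed here, and a few genes of the lists are counted but not reported by name.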

Additional observations from a re-analysis of the deposited data

Results flagged for a closer look

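*Fdft1*, the squalene synthase, went in opposite directions in SP between set 1 and the larger sets. The 3 SP libraries of set 1 all lay below scr of that set, and the SP libraries of sets 2 and 3 both lay above theirs. The mean log2 difference from scr in set 1 minus the mean of sets 2 and 3 was −0.403. The difference between sets was not tested, since set 1 had 1 scr library and its libraries were shallower, with *Rn45s* at 69.2% to 79.1% of the reads.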

How the results depend on the processing

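How many of the 8 genes were called depended on the replicate block and on the controls. In SP of sets 2 and 3 the count was 0 without a block, 1 with the replicate block by limma and 1 by edgeR, and 3 with untreated and luciferase added as controls. In SATS it was 0 by limma with the replicate block, 1 by edgeR with it and 4 with the added controls, and in 5p it was 1 with the added controls. With 1 library left out in turn, the count ran from 0 to 2 in SP of 3 sets and from 0 to 1 in SATS, and the highest values came from fits with the block, without scr or SP of set 1 and without SATS of set 2 (left out within the block after seeing the data). Over all genes those 3 fits called 475, 470 and 722. Over all genes the block moved the count from 1 to 123 in SP of sets 2 and 3, from 1 to 47 in 3p, from 2 to 391 in 5p, from 0 to 436 in SATS and from 0 to 537 in 5p against 3p, and DESeq2 without a block called 21 in SP, 68 in 5p and 88 in 5p against 3p. With 1 library of the comparison left out of the blocked fit these counts ran from 6 to 32 in SP, from 2 to 49 in 3p, from 20 to 421 in 5p, from 3 to 722 in SATS and from 84 to 650 in 5p against 3p, and the shares of all genes given beside the 8 genes rest on the full fits. The replicate block changed no other call of the 8 genes. Of 504 values of single genes under the other settings, 473 kept their direction and side of the threshold, 19 uncalled values changed sign, 11 newly passed and 1 no longer passed. With 1 library left out these counts were 360, 89, 5 and 2 of 456. No called value changed sign. With 2 libraries per group and an error near 0.08 on the log2 scale, most differences of the 8 genes in the KDs were not detectable.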
